A study of Mus musculus with 6 samples.

Results

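Integrins are the receptors by which T cells hold on to other cells and to the extracellular matrix. Described here is the mRNA of 10 integrin genes, Itgae, Itgax, Itga7, Itgam, Itga1, Itga4, Itgal, Itgb1, Itgb2 and Itgb7, among the 26128 genes listed for double negative T (DNT) cells. They were chosen by name, with the response of these genes to IL-33 already known from the same libraries, so their response is given as a description, with no p, and counts of them past a threshold support nothing. The lists of other genes below were also chosen with earlier results of these data known. Their counts and adjusted p are therefore no independent support.

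The cells were adult male C57BL/6 mouse CD4+CD25- T cells that had been converted to DNT cells in culture with IL-2 and mature dendritic cells of DBA/2 mice, and that were sorted as CD3+NK1.1-CD4-CD8-. All 6 libraries came from sorted cells kept with anti-CD3/CD28 beads for 48 h, of which 3 served as control and 3 had received IL-33 (50 ng/ml). No genotype other than wild type was used. The conversion in culture limits the cells as a model of the DNT cells found in mice, and neither the labels nor the methods say whether the libraries of a group came from separate mice or cultures, so the spread between them may be technical.

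Each integrin is a pair of an α and a β subunit, and the β subunit decides which α partners are possible. β2 (Itgb2) is the leukocyte chain, which pairs with αL (Itgal) in LFA-1, with αM (Itgam) in Mac-1 and with αX (Itgax) in CD11c/CD18, and binds ICAMs and complement fragments. β7 (Itgb7) pairs with αE (Itgae) in the CD103 complex, which binds E-cadherin on epithelium, and with α4 (Itga4) in the gut homing receptor. β1 (Itgb1) pairs with α4 and with the matrix receptors, of which α1 (Itga1) binds collagen and α7 (Itga7) binds laminin and is best known from muscle. A subunit reaches the cell surface only with a partner, and integrins are also switched on and off by adaptor proteins inside the cell, so mRNA levels are not levels of active receptor.

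The libraries held 20256342 to 22336050 counts. Levels are given as CPM, the counts of a gene divided by the total of its library and scaled to a common sum of 1000000, with TMM factors of 0.9927 to 1.008, and 3 counts, taken as the limit of detection, came to 0.134 to 0.148 CPM. A gene is called past both thresholds where edgeR's quasi-likelihood test over 14671 genes gave a Benjamini-Hochberg adjusted p under 0.05 and IL-33 and control differed at least 1.5-fold. The T cell markers summed to 2328 to 2496 CPM in the control libraries and to 2411 to 2520 CPM with IL-33. Of these 9 markers 0 were past both thresholds and 3 passed the adjusted p, beside 4.87% and 27.5% of all genes tested. Cd3g was higher (log2 fold change 0.13, adjusted p = 0.0336 in edgeR's test). Lck (log2 fold change -0.17, adjusted p = 2.2e-05) and Cd5 (log2 fold change -0.43, adjusted p = 0.0289) were lower. Of the markers that the sort excluded, Cd4 was at 0.729 to 1.08 CPM in control libraries and at 0.225 to 0.511 CPM with IL-33 (log2 fold change -1.31, adjusted p = 0.0233, and 0.0606 to 0.125 without IL-33 replicate 2 or 3 or without control replicate 1 or 2). Against the sort, Cd8a was at 535 to 560 CPM in control libraries and at 392 to 410 CPM with IL-33 (log2 fold change -0.45, adjusted p = 2.4e-26), and Klrb1c, the gene of NK1.1, was at 30.5 to 35.0 and at 24.4 to 26.7 CPM. Cd8b1 went the other way, from 8.11 to 11.4 CPM in control libraries to 14.0 to 18.1 CPM with IL-33 (log2 fold change 0.75, adjusted p = 6.2e-08 in edgeR's test). Summed markers of NK and innate lymphoid cells, mostly Gzma, were at 16000 to 16499 and at 15606 to 15729 CPM, those of mast cells and basophils at 14.9 to 19.9 and at 10.2 to 13.6 CPM, and those of B cells at 4.79 to 5.69 and at 5.29 to 6.34 CPM. Among them Il7r (93.5 to 99.6 against 56.7 to 63.3 CPM, log2 fold change -0.66, adjusted p = 1.1e-24) and the mast cell gene Cpa3 (9.22 to 13.2 against 6.38 to 7.46 CPM, log2 fold change -0.62, adjusted p = 8.3e-05) were lower, past both thresholds. In edgeR 1 of 4 tested NK and innate lymphoid markers and 1 of 2 of mast cells and basophils were past both thresholds. Of the tested B cell markers 0 of 2 were, and of those that the sort excluded 2 of 4, beside 4.87% of all genes tested. Those 2 were Cd4 and Cd8b1, and in DESeq2 1 was past both thresholds. In the list of NK and innate lymphoid markers Ncr1 was at or below 0.225 CPM in every library. Klre1 was at 8.55 to 10.6 CPM and Klrk1 at 26.3 to 30.7 CPM over the 6 libraries. The part that such cells had in the integrin levels was not tested.

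All 10 genes passed the filter on low counts. In each of them the 3 IL-33 libraries lay all above or all below the 3 control libraries, 6 higher and 4 lower, beside 38.9% of all genes tested in which the groups did not overlap (19.4% higher and 19.5% lower). Past both thresholds were 4 of the 10, Itga7 and Itgam higher and Itgae and Itgax lower, beside 4.87% of all genes tested (2.47% higher and 2.39% lower), and by the adjusted p alone all 10 passed, beside 27.5%. Since the 10 genes were chosen with this contrast known, these counts describe the choice. The 4 genes that moved most are α subunits, while the β subunits Itgb1, Itgb2 and Itgb7 moved by at most 1.09-fold. The median log2 fold change of the 10 was 0.12, beside -6.2e-04 over all genes tested.

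**Figure D1:**
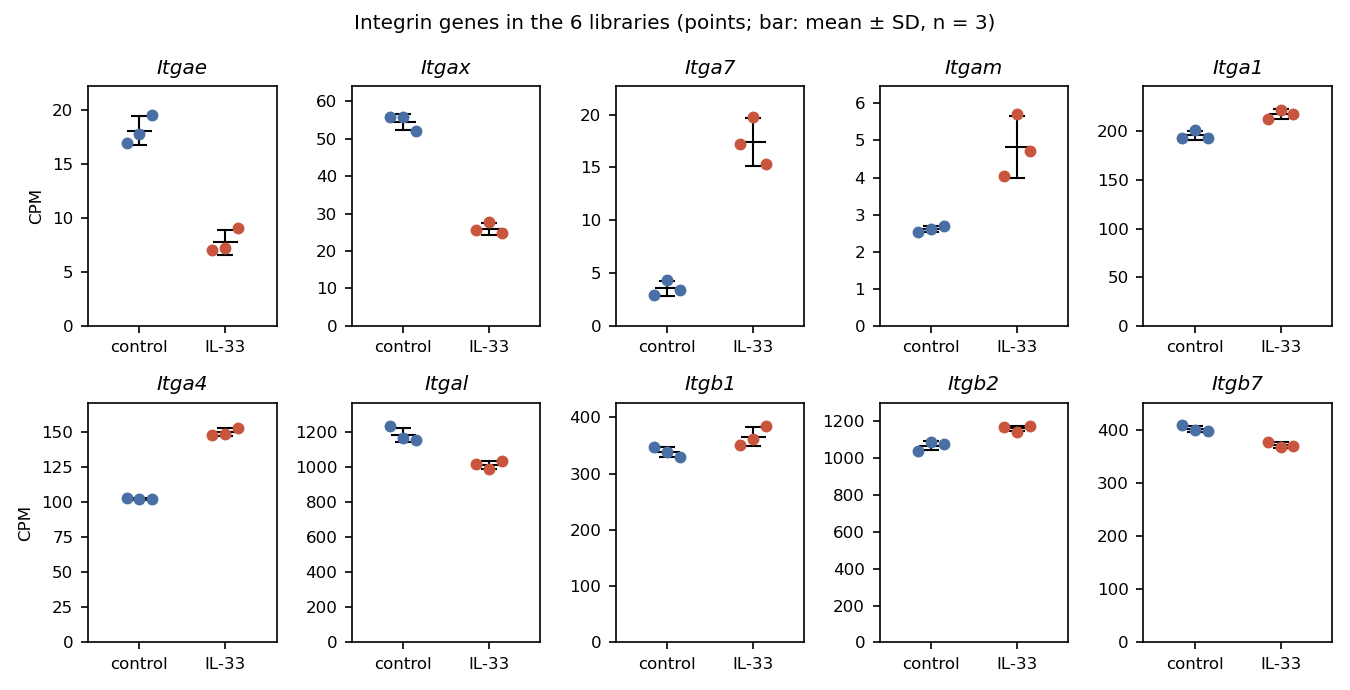
CPM of the 10 integrin genes in each library (points), with the mean and SD of the 3 control and the 3 IL-33 libraries (bars); each panel has its own axis from 0. The groups are apart in every panel, from 3.55 against 17.4 CPM in Itga7 to 338 against 366 CPM in Itgb1.

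Itgae (ENSMUSG00000005947, chromosome 11, 73090583 to 73147446, plus strand, GRCm38) encodes αE, the CD103 chain that marks T cells lodged in epithelium. It was at 17.0, 17.8 and 19.6 CPM in the control libraries and at 7.01, 7.19 and 9.08 CPM with IL-33. Every control library was well above every IL-33 library. The mean was 18.1 ± 1.29 CPM in control and 7.76 ± 1.14 CPM in IL-33 libraries (SD, n = 3 each), and the log2 fold change was -1.22 with a standard error of 0.11. In a bulk sample fewer cells that express a gene and less of its RNA per cell cannot be told apart, which holds for every gene here. Haspin, a kinase gene of mitosis that lies inside Itgae on the other strand without sharing exon bases, was at 18.5 to 21.6 CPM in control libraries and at 14.2 CPM in each IL-33 library (log2 fold change -0.51, adjusted p = 4.9e-06 in edgeR's test).

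Itga4 (ENSMUSG00000027009, chromosome 2, 79255426 to 79333123, plus strand) encodes α4, the other partner of β7 and also a partner of β1. Its level was 103, 102 and 102 CPM in the control libraries and 148, 149 and 153 CPM with IL-33. The control libraries agreed closely, and all 3 IL-33 libraries were far above them. The mean was 102 ± 0.523 CPM in control and 150 ± 2.75 CPM in IL-33 libraries (SD, n = 3 each), 1.47-fold, and its log2 fold change of 0.55 with a 95% interval of 0.48 to 0.63 lay just under the fold change threshold. Itga4 shares 1124 exon bases with Cerkl on the other strand, which was at 2.28 to 3.88 CPM over the 6 libraries.

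Itgb7 (ENSMUSG00000001281, chromosome 15, 102215995 to 102231944, minus strand), the β subunit of both, was at 409, 401 and 398 CPM in the control libraries and at 378, 368 and 370 CPM with IL-33. The difference was small, and every IL-33 library was below every control library. The log2 fold change was -0.11 with a 95% interval of -0.17 to -0.057. The 2 α partners therefore went in opposite directions around a β subunit that changed 1.08-fold.

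To compare levels between genes, CPM was divided by the length of all annotated exons of the gene in kb. On this scale Itga4 was 1.98, 1.87 and 1.71 times Itgae in the control libraries and 6.90, 6.80 and 5.53 times Itgae with IL-33. As a share of the mRNA of both β7 partners, Itgae made up 35.1% ± 1.70 in control libraries and 13.6% ± 1.50 with IL-33 (SD, n = 3 each). With the longest coding transcript as the length the share of Itgae was 31.0% and 11.6%. These are shares of mRNA, and α4 also pairs with β1.

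**Figure D2:**
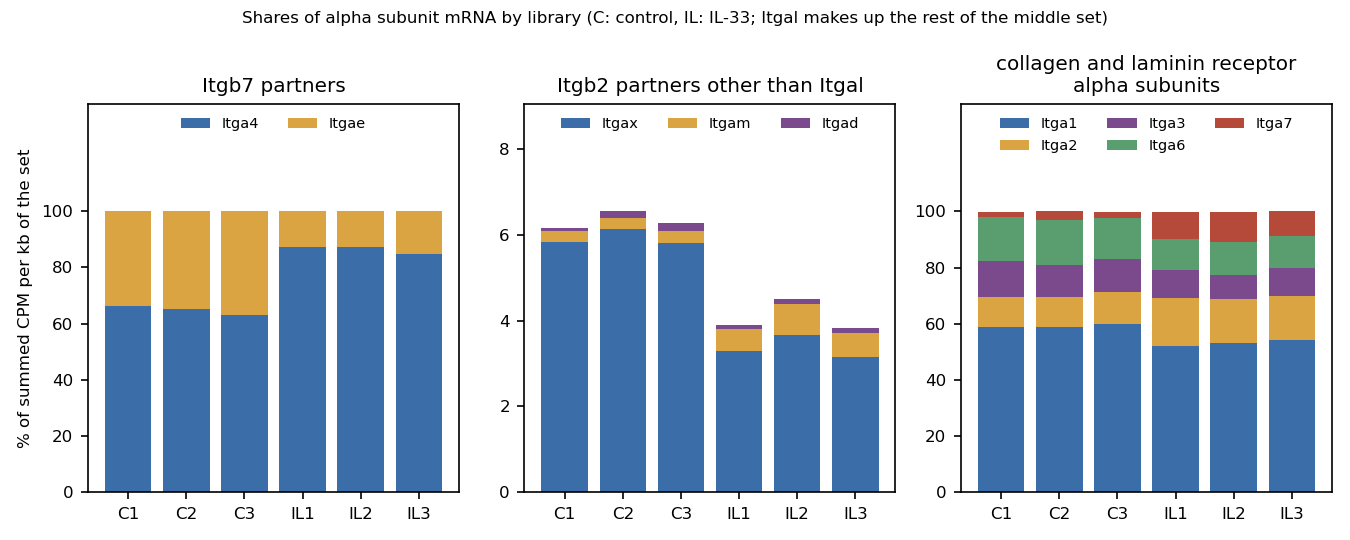
Share of each α subunit in the summed CPM per kb of annotated exons of its set, by library (C1 to C3 control, IL1 to IL3 with IL-33). The sets are the partners of β7, those of β2 (drawn without Itgal), and Itga1, Itga2, Itga3, Itga6 and Itga7, α subunits of collagen and laminin receptors. The middle axis ends below 10%. Itgae shrinks beside Itga4, Itgax shrinks while Itgam grows, and Itga7 grows from 2.47% to 9.81% of the last set.

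Itgax, Itgam and Itgal lie on chromosome 7, where Itgam and Itgax are neighbours on the same strand, 11055 bases apart, and Itgax is 3718 bases from Itgad. Itgax and Itgam are shown first by their promoters, because these neighbours moved in opposite directions, beside the promoter of Itga4. RefSeq starts (GRCm38.p6) were found for 6 of the 10 genes, Itga4, Itgam, Itgax, Itgb1, Itga1 and Itgb7. Each line gives the 250 bases before the start, 5′ to 3′ on the strand of the gene, at chr7:128129300-128129549 for Itgax, chr7:128062390-128062639 for Itgam and chr2:79255176-79255425 for Itga4, all on the plus strand. Capitals mark matches to any of 7 motifs, searched on both strands.
Itgax: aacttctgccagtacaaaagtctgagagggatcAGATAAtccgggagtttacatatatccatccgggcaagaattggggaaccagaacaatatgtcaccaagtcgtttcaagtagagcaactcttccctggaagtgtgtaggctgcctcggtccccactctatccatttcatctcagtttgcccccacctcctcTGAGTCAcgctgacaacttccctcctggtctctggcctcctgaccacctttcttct
Itgam: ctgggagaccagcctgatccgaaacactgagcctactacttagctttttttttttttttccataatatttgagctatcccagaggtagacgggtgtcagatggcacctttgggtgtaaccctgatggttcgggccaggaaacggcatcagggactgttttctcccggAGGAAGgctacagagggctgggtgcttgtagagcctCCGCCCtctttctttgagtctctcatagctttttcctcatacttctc
Itga4: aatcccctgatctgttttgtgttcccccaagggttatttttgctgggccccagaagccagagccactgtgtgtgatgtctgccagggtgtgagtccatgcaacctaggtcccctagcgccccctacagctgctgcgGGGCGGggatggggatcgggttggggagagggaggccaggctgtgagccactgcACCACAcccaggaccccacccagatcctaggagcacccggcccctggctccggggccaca

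The Itgax window holds a GATA match (AGATAA), 217 bases before the start, and an AP-1 match (TGANTCA) 56 bases before it. The Itgam window holds an ETS match (AGGAAG) at 83 bases before the start and an SP1 match (GGGCGG, on the other strand) at 47. The Itga4 window holds an SP1 match at 114 and a RUNX match (TGTGGT, on the other strand) at 60 bases before the start. Thus no motif is shared between the windows of Itgax and Itgam. Of 32851 promoter windows of the same length, 29.5% hold the ETS letters, 14.0% RUNX, 6.75% AP-1, 9.99% GATA and 32.7% SP1, so none of these letters is particular to these genes. The STAT letters (TTCNNNGAA, in 7.02% of windows) and the NF-κB motif (in 7.25%) are in none of the 3 windows, which says only that these letters are not in this stretch. No match overlaps another in these windows.

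Itgax (ENSMUSG00000030789, chromosome 7, 128129547 to 128150657, plus strand) encodes αX, the CD11c chain, which is best known from dendritic cells and is also found on activated T cells. It was at 55.8, 55.7 and 52.1 CPM in the control libraries and at 25.5, 27.7 and 24.7 CPM with IL-33. Every IL-33 library held about the same reduced level, and no control library came near it. The mean was 54.5 ± 2.07 CPM in control and 26.0 ± 1.58 CPM in IL-33 libraries (SD, n = 3 each), and the log2 fold change was -1.07 with a standard error of 0.064, the smallest error among the 4 genes that moved most. Of its sequence, 8.02% of 50-base stretches are shared with Itgad, between which reads could be split.

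Since dendritic cells were used for the conversion and carry Itgax, their markers are given beside it. The 17 markers of dendritic and myeloid cells summed to 321 to 336 CPM in control libraries and to 323 to 338 CPM with IL-33. Of the 9 tested 0 were past both thresholds in edgeR or DESeq2 and 1, Cd74, in limma-voom, beside 4.87% of all genes tested in edgeR. At an unadjusted p under 0.05 in edgeR were 3. The share of all genes at this looser limit is not given, and is at least the 27.5% that passed the adjusted p. Cd74 was at 5.22 to 5.93 and at 3.39 to 4.43 CPM (log2 fold change -0.58, adjusted p = 0.00543 in edgeR's test). H2-Ab1, another class II gene, went the other way, at 22.7 to 26.6 and at 29.6 to 31.4 CPM (log2 fold change 0.29, adjusted p = 0.00123 in edgeR's test). Cd14, at 0.688 to 1.22 and at 0.975 to 2.11 CPM, had a log2 fold change of 0.69 (adjusted p = 0.12 in edgeR's test), and its groups overlapped. Most of that sum was Fcer1g, at 245 to 263 CPM. The defining genes Flt3, Siglech, Csf1r, Adgre1, Lyz2 and H2-Aa were below 1 CPM in every library, and Clec9a and Cd209a were not in the table. Zbtb46 was at 2.46 to 3.39 CPM and Xcr1 at 10.5 to 13.4 CPM over the 6 libraries, with adjusted p of 0.912 and 0.521 for the difference.

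Itgam (ENSMUSG00000030786, chromosome 7, 128062640 to 128118491, plus strand) encodes αM, the CD11b chain of macrophages and granulocytes. It was at 2.54, 2.61 and 2.69 CPM in the control libraries and at 4.04, 5.72 and 4.72 CPM with IL-33. These are low levels, 53 to 59 counts in a control library and 87 to 120 with IL-33, but the groups did not overlap. The log2 fold change was 0.88 with a 95% interval of 0.50 to 1.27. Itgam shares 3450 exon bases, 68.7% of its own, with Gm49368, an annotated gene on the same strand that reaches to within 1386 bases of Itgax and was listed with 1 count in all. How reads that fit both genes were counted is not known, so the level of Itgam is uncertain.

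Itgal (ENSMUSG00000030830, chromosome 7, 127296260 to 127335138, plus strand) encodes αL of LFA-1, by which T cells hold on to antigen-presenting cells and vessel walls through ICAMs. It was at 1230, 1163 and 1153 CPM in the control libraries and at 1014, 988 and 1035 CPM with IL-33. The difference was modest, and the groups did not overlap. The log2 fold change was -0.22 with a standard error of 0.024. Its β subunit Itgb2 (ENSMUSG00000000290, chromosome 10, 77530252 to 77565708, plus strand) was at 1039, 1088 and 1077 CPM in control libraries and at 1169, 1145 and 1173 CPM with IL-33. Itgb2 thus went slightly the other way, with a log2 fold change of 0.12 and a 95% interval of 0.075 to 0.17.

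Per length of exons, Itgal made up 93.7% ± 0.200 of the mRNA of the 4 β2 partners in control libraries and 95.9% ± 0.368 with IL-33 (SD, n = 3 each). Itgax went from 5.91% ± 0.180 to 3.37% ± 0.271 of that sum. Itgam went from 0.271% ± 0.0163 to 0.599% ± 0.113, and Itgad stood at 0.137% ± 0.0484 and 0.106% ± 0.0160. LFA-1 mRNA thus outweighed the other β2 partners in both groups, and among these the ratio of Itgax to Itgam went from 21.9 ± 1.40 to 5.71 ± 0.786.

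Itga7 (ENSMUSG00000025348, chromosome 10, 128933818 to 128958282, plus strand) encodes α7, a laminin receptor chain that pairs with β1. It was at 2.92, 4.33 and 3.42 CPM in the control libraries and at 17.2, 19.8 and 15.3 CPM with IL-33. Every IL-33 library held at least 340 counts and no control library more than 88. The means of 3.55 ± 0.714 and 17.4 ± 2.28 CPM (SD, n = 3 each) were 4.91-fold apart, and the log2 fold change was 2.29 with a standard error of 0.14. Mettl7b on the other strand shares 9 exon bases with Itga7 and was not in the table. The snRNA gene Gm25494, inside Itga7 on the same strand without shared exon bases, was not in the table either. A neighbour, 20995 bases away, is Cd63, a tetraspanin of lysosomes and the cell surface, which was lower with IL-33, at 15.8 to 18.1 against 11.5 to 13.8 CPM (log2 fold change -0.49, adjusted p = 8.0e-05 in edgeR's test).

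Itga1 (ENSMUSG00000042284, chromosome 13, 114953096 to 115101964, minus strand) encodes α1 of VLA-1, the collagen receptor of T cells held in tissues. It was at 193, 201 and 193 CPM in the control libraries and at 212, 222 and 218 CPM with IL-33. The groups did not overlap, but the change was small, 1.11-fold. The log2 fold change was 0.15 with a 95% interval of 0.083 to 0.22. Itga1 shares 685 exon bases, 3.68% of its own, with Gm49395, which was at 2.20 to 3.42 CPM. Inside Itga1, without shared exon bases, lie Pelo, at 0.225 to 1.03 CPM (adjusted p = 0.819), and the antisense gene Gm10734, at 4.54 to 6.19 CPM (adjusted p = 0.192). Their common β subunit Itgb1 (ENSMUSG00000025809, chromosome 8, 128685654 to 128733200, plus strand) was at 347, 339 and 329 CPM in control libraries and at 351, 362 and 385 CPM with IL-33. The highest control library and the lowest IL-33 library nearly touched, and the log2 fold change was 0.11 with a 95% interval of 0.053 to 0.18.

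Shares among α subunits for collagen and laminin were taken over Itga1, Itga2, Itga3, Itga6 and Itga7 only, without Itga10 and Itga11. Per length of exons, Itga1 held the greatest share of this set in both groups, 59.3% ± 0.691 in control libraries and 53.3% ± 1.01 with IL-33 (SD, n = 3 each). Itga7 went from 2.47% ± 0.438 to 9.81% ± 1.11. Itga2 went from 10.9% ± 0.305 to 16.0% ± 0.951, while Itga3 went from 12.1% to 9.48% and Itga6 from 15.3% to 11.4%. With the longest coding transcript as the length, Itga1 went from 61.8% to 56.0% and Itga7 from 3.05% to 12.2%. On that length Itga2 went from 6.70% to 9.96%, Itga3 from 8.76% to 6.91% and Itga6 from 19.7% to 14.9%.

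In control libraries the order of the 10 genes by CPM per kb of exons was Itgb2 (350), Itgal (180), Itgb7 (145), Itgb1 (82.9), Itgax (11.4), Itga1 (10.5), Itga4 (7.32), Itgae (3.96), Itgam (0.520) and Itga7 (0.439). Neighbours in this order did not overlap between libraries, except Itgam and Itga7. With IL-33 the order was Itgb2 (381), Itgal (154), Itgb7 (134), Itgb1 (89.7), Itga1 (11.7), Itga4 (10.7), Itgax (5.40), Itga7 (2.15), Itgae (1.69) and Itgam (0.961), and Itga7 and Itgae overlapped. So Itgax moved from above Itga1 and Itga4 to below both, and on this scale Itga7 from the last place to a level that overlapped that of Itgae. With the longest coding transcript as the length, Itga1 was above Itgax and Itga7 above Itgam already in control libraries, and with IL-33 Itga7 (3.80 to 4.93) was above Itgae (1.82 to 2.36) without overlap. In both groups each of the 3 β subunits was above every α subunit of the 10 but Itgal.

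**Figure D3:**
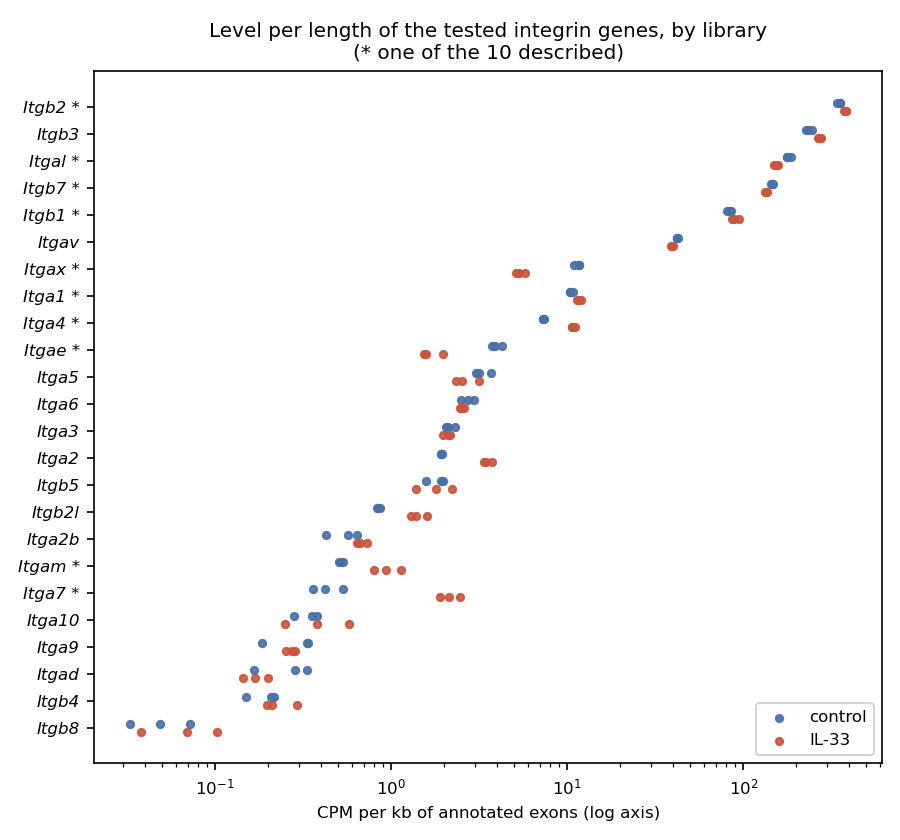
CPM per kb of annotated exons (log axis) of the 24 tested integrin genes in each library, control and IL-33, ordered by the control mean; a star marks the 10 genes described. The levels reach from under 0.1 for Itgb8 to 350 in control libraries for Itgb2, and the colours are farthest apart in Itga7.

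Of the 17 other integrin genes, Itga8 and Itgb6 were not in the table, and Itga11 was listed at 1 to 11 counts and not tested. Among the 14 tested, 2 were past both thresholds, both higher with IL-33, beside 2.47% of all genes tested, and 0 were lower. Their median log2 fold change was 0.089. Itga2, the collagen receptor chain α2 and partner of β1, was at 13.6, 13.9 and 13.8 CPM in control libraries and at 26.6, 24.6 and 23.9 CPM with IL-33 (log2 fold change 0.86, standard error 0.089, adjusted p = 2.5e-14 in edgeR's test). It lies 20995 bases from Itga1 and moved much more than that neighbour. Itgb2l, a β2-like gene, was at 3.59 to 3.72 CPM and at 5.57 to 6.86 CPM (log2 fold change 0.75, adjusted p = 1.9e-04).

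Itgb3 and its partner Itgav, the vitronectin receptor, were among the integrin genes with the highest levels per length. Itgb3 was at 1343 to 1448 CPM in control libraries and at 1569 to 1628 CPM with IL-33 (log2 fold change 0.20, adjusted p = 8.5e-12), and per length of exons it ranked between Itgb2 and Itgal in both groups. Itgav was at 451 to 458 and at 421 to 427 CPM (log2 fold change -0.10, adjusted p = 0.00287). Itga5, the fibronectin receptor chain, had a log2 fold change of -0.29 and an adjusted p of 0.0306, which rose to 0.113 in DESeq2, to 0.212 and 0.106 without IL-33 replicate 2 and 3, and to 0.227 without control replicate 1. The other 9 tested genes, Itga2b, Itga3, Itga6, Itga9, Itga10, Itgad, Itgb4, Itgb5 and Itgb8, did not pass the adjusted p of 0.05. Of these Itgad, the fourth β2 partner beside Itgax, was at 0.753 to 1.50 CPM in control libraries and at 0.650 to 0.899 CPM with IL-33, a log2 fold change of -0.61 with a 95% interval of -1.36 to 0.14 that includes the change of Itgax.

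**Figure D4:**
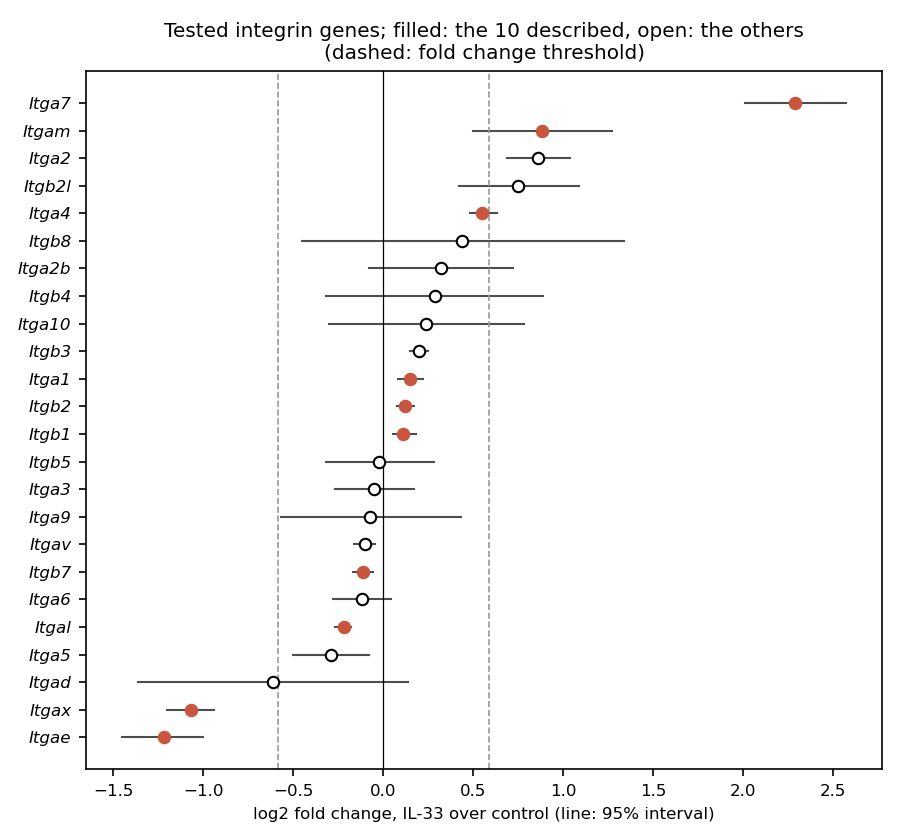
Log2 fold change of IL-33 over control with its 95% interval for the 24 tested integrin genes; filled points are the 10 described, open points the others, and dashed lines the fold change threshold. Itga7 stands alone at 2.29, Itgae and Itgax lie near -1, and Itga2 and Itgb2l lie near Itgam.

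Ligands of integrins were also expressed by the cells. Of 31 ligand genes 16 were tested, and 3 were higher and 1 lower past both thresholds, beside 2.47% and 2.39% of all genes tested, with a median log2 fold change of 0.045. Cdh1, E-cadherin and the ligand of CD103, was at 131, 134 and 148 CPM in control libraries and at 256, 267 and 260 CPM with IL-33. All IL-33 libraries lay far above the control libraries, a log2 fold change of 0.92 with a standard error of 0.036 (adjusted p = 5.4e-37 in edgeR's test). Cdh1 thus rose where the α chain of its receptor was lower. The JAM genes, whose proteins bind LFA-1, α4β1 and Mac-1, were expressed at low levels. F11r (1.08 to 1.37 against 2.29 to 2.57 CPM, adjusted p = 0.00358) and Jam2 (1.32 to 2.14 against 3.53 to 3.73 CPM, adjusted p = 5.6e-05) rose. Jam3 was at 1.46 to 2.54 against 0.809 to 1.19 CPM (adjusted p = 0.00525), a call that was lost without control replicate 1 (adjusted p = 0.0611). Spp1, osteopontin and a ligand of αv and α4 integrins, was at 772 to 879 CPM in control libraries and at 663 to 667 CPM with IL-33, a log2 fold change of -0.32 (adjusted p = 6.6e-08). Of the LFA-1 ligands, Icam1 was at 91.5 to 95.7 and at 92.2 to 98.2 CPM (log2 fold change 0.014, 95% interval -0.068 to 0.097). Thy1, with the highest mean CPM of the ligand genes, was at 1135 to 1158 and at 1151 to 1192 CPM (adjusted p = 0.298). Vcam1, a ligand of α4β1, was at or below 0.0929 CPM in every library, under the limit of 3 counts.

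Inside the cell, talin and kindlin bind the tails of β subunits and switch integrins on, and Rap1 with its effectors recruits them. Of 45 listed genes of integrin activation and adaptors 39 were tested. In edgeR, DESeq2 or limma-voom 0 were past both thresholds, beside 4.87% of all genes tested in edgeR. At an unadjusted p under 0.05 in edgeR were 16. The share of all genes at this looser limit is not given, and is at least the 27.5% that passed the adjusted p. The median log2 fold change was 0.018. By the adjusted p alone 6 were higher and 7 lower, beside 13.6% and 13.9% of all genes tested. Tln1, talin, was at 1216 to 1244 CPM in control libraries and at 1175 to 1228 CPM with IL-33 (adjusted p = 0.206). Fermt3, the kindlin of blood cells, had a log2 fold change of 0.085 (adjusted p = 0.0153). Genes of the Rap1 pathway went both ways. Rap1a had a log2 fold change of 0.13 (adjusted p = 0.00315) and Fyb, the scaffold ADAP, of 0.22 (adjusted p = 2.4e-08). Rassf5, the Rap1 effector RAPL that binds αL, had a log2 fold change of -0.28 (adjusted p = 5.5e-12) and Skap1, the partner of ADAP, of -0.24 (adjusted p = 1.1e-05). Of the links to actin, Flna, Zyx and Actn4 were lower and Actn1 higher by the adjusted p, each by less than the fold change threshold.

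Tetraspanins gather integrins in the membrane. Of 8 tested, 0 were past both thresholds by edgeR, DESeq2 or limma-voom, beside 4.87% of all genes tested in edgeR. At an unadjusted p under 0.05 in edgeR were 4. The share of all genes at this looser limit is not given, and is at least the 27.5% that passed the adjusted p. The median log2 fold change was -0.25. By the adjusted p 3 were lower and 0 higher, beside the same 13.9% and 13.6%. Cd82 was at 300 to 315 CPM and at 245 to 248 CPM with IL-33 (log2 fold change -0.32, adjusted p = 3.9e-15). Tspan32, at -0.58, lay just under the fold change threshold (adjusted p = 5.3e-05) and was past it at -0.60 without control replicate 1. Cd53, with the highest mean CPM of the list, was at 746 to 788 and at 768 to 791 CPM (adjusted p = 0.381).

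TGF-β signalling is known to induce Itgae in T cells, with Smad3 and Runx3 among the factors. Of 20 genes of the pathway 18 were tested, and 1 was past both thresholds, higher, beside 2.47% of all genes tested, with a median log2 fold change of -0.0083. That was Tgfb3, a ligand, at 19.9, 16.1 and 19.9 CPM in control libraries and at 34.7, 41.9 and 38.4 CPM with IL-33 (log2 fold change 1.04, adjusted p = 8.6e-20 in edgeR's test). By the adjusted p alone 5 were higher and 6 lower, beside 13.6% and 13.9% of all genes tested. Tgfb1, another ligand, was at 278 to 281 and at 236 to 260 CPM (log2 fold change -0.19, adjusted p = 9.2e-07). The receptor genes went opposite ways. Tgfbr1 was at 90.1 to 92.1 and at 63.1 to 68.4 CPM (log2 fold change -0.45, adjusted p = 7.2e-16), and Tgfbr2 was at 449 to 453 and at 473 to 498 CPM (log2 fold change 0.12, adjusted p = 5.4e-04). The Runx genes did likewise, Runx3 with a log2 fold change of 0.42 (adjusted p = 9.7e-21) and Runx1 of -0.42 (adjusted p = 2.8e-14). Smad3 had a log2 fold change of -0.24 (adjusted p = 0.00319). What part any of these had in the level of Itgae was not tested.

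Itgae and Itga1 are also markers of T cells resident in tissues, so other genes of that state are given. Of 11 genes known to be high in resident cells 0 were past both thresholds in edgeR, DESeq2 or limma-voom, beside 4.87% of all genes tested in edgeR. At an unadjusted p under 0.05 in edgeR were 9. The share of all genes at this looser limit is not given, and is at least the 27.5% that passed the adjusted p. The median log2 fold change was 0.16. By the adjusted p 6 were higher and 2 lower, beside 13.6% and 13.9% of all genes tested. Rgs1, which dampens chemokine receptor signals, was at 562 to 596 and at 714 to 728 CPM (log2 fold change 0.31, adjusted p = 8.0e-19), and Litaf at 254 to 276 and at 294 to 305 CPM (log2 fold change 0.16, adjusted p = 1.9e-05). Cd69, which holds cells in tissue, was at 188 to 193 and at 242 to 257 CPM (log2 fold change 0.41, adjusted p = 3.5e-19). Prdm1, the gene of Blimp-1, was at 61.0 to 71.3 and at 94.0 to 102 CPM (log2 fold change 0.55, adjusted p = 9.0e-18) and was past both thresholds, at 0.61, without control replicate 3. Zfp683, the gene of Hobit, a partner of Blimp-1, was at 139 to 148 and at 97.9 to 103 CPM (log2 fold change -0.52, adjusted p = 3.3e-21). Of 6 tested genes known to be low in resident cells, 2 were past both thresholds, both higher, beside 2.47% of all genes tested, with a median log2 fold change of -0.076. Ccr7, the lymph node homing receptor, was at 3.72 to 4.42 and at 8.34 to 9.57 CPM (log2 fold change 1.14, adjusted p = 3.9e-10), and Klf2, a factor of circulating T cells, at 2.11 to 2.78 and at 3.62 to 4.36 CPM (log2 fold change 0.72, adjusted p = 0.00476). Eomes, a T-box factor, was at 371 to 374 and at 348 to 365 CPM (adjusted p = 0.143), and Tcf7, a factor of naive and memory T cells, at 34.8 to 35.4 and at 26.0 to 31.1 CPM (log2 fold change -0.28, adjusted p = 6.8e-04). The genes of residency thus did not move as 1 group, and Itgae and Itga1 also differed in direction.

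Of 13 other adhesion genes tested 0 were past both thresholds in edgeR, DESeq2 or limma-voom, beside 4.87% of all genes tested in edgeR. At an unadjusted p under 0.05 in edgeR were 7. The share of all genes at this looser limit is not given, and is at least the 27.5% that passed the adjusted p. The median log2 fold change was -0.023. By the adjusted p 4 were higher and 3 lower, beside 13.6% and 13.9% of all genes tested. Selplg, the selectin ligand PSGL-1, was at 573 to 626 and at 666 to 736 CPM (log2 fold change 0.20, adjusted p = 5.9e-04), and Cd44, the hyaluronan receptor, at 119 to 134 and at 110 to 114 CPM (log2 fold change -0.18, adjusted p = 1.5e-04). Spn and Cd47, with the highest mean CPM of the list over all 6 libraries, had adjusted p of 0.56 and 0.416.

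**Figure D5:**
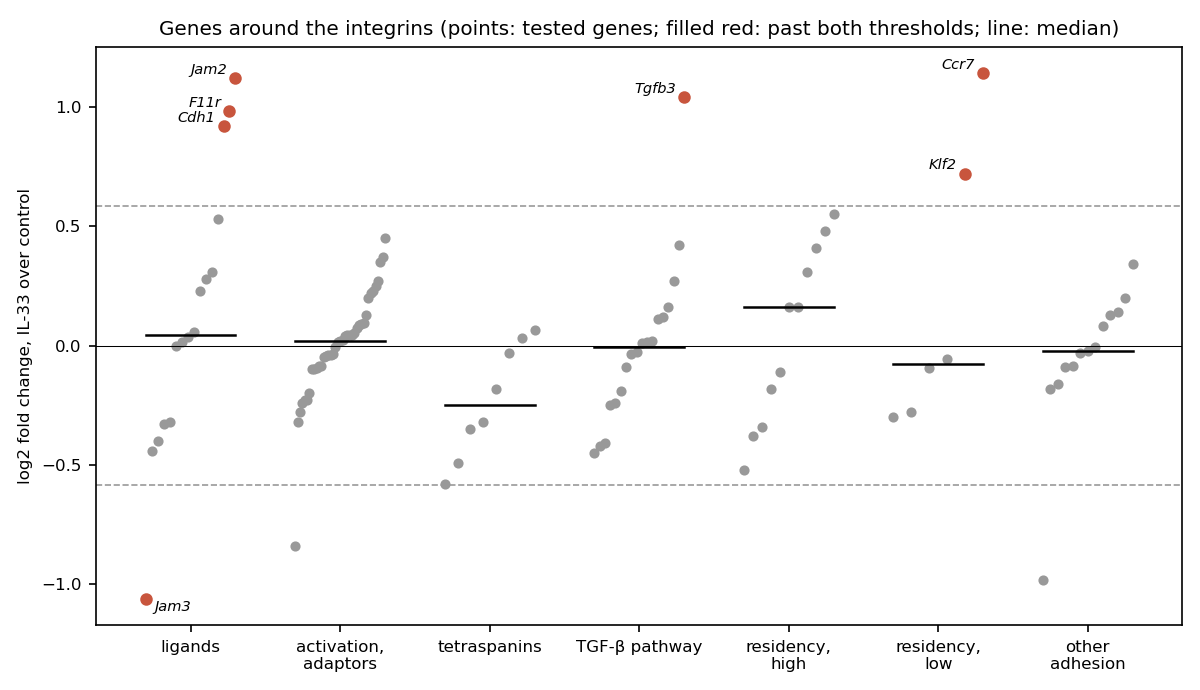
Log2 fold change of IL-33 over control for each tested gene of 7 lists around the integrins; red points are past both thresholds, dashed lines mark the fold change threshold and black lines the median of each list. The medians lie between -0.25 for the tetraspanins and 0.16 for the genes high in resident cells, and the red points are Jam2, F11r, Cdh1, Jam3, Tgfb3, Ccr7 and Klf2.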

How the data were processed

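RNA of 6 libraries of mouse DNT cells was sequenced, 3 without and 3 with IL-33. The authors deposited read counts per gene for each library, without normalization, by Ensembl identifier. The submitters' processing notes name Bowtie 0.12.2 and mm8, while the identifiers belong to a later annotation, so how reads were assigned, including use of the strand, is uncertain. The labels name a TruSeq kit and the paper's methods NEBNext. A further deposited column of signal, a mean over libraries, was not used. Positions and lengths are from GENCODE M21 (GRCm38), where 26072 identifiers matched.

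Counts were filtered with filterByExpr of edgeR 4.0.16 in R 4.3.3 (minimum count 10, minimum total 15), which left 14671 genes and removed 0.11% of counts. They were scaled by TMM and compared by the robust quasi-likelihood test, two-sided, without covariates. The limits on the adjusted p (0.05) and on the fold change (1.5) follow the paper. Alternatives were DESeq2 1.42.0, limma-voom (limma 3.58.1), size factors of DESeq2, other filters, a replicate block and each library left out. The biological coefficient of variation was 0.0468. The mean chi-square statistic per gene between pairs of replicates was 2.64 to 3.67, above the value that sampling noise alone would give. No p was computed for it. Same-numbered libraries did not deviate together (correlations 0.0471, -0.0858 and 0.0427 over 8838 genes), so numbers were not taken as pairs. Floors cover counting error only.

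The 10 genes and all lists were chosen with earlier results of these data known. Named by rule were the integrin genes, list genes past both thresholds, the pair of genes with the highest mean CPM in each list, neighbours within 50 kb that overlap an integrin gene of the 10 or are past both thresholds, and the 3 genes nearest in pattern to the greatest rise and fall. Other list genes with an adjusted p under 0.05, Icam1, Vcam1, Cd63 and the markers were named after their values were seen.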

Additional observations from a re-analysis of the deposited data

How the results depend on the processing

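Since the 10 integrin genes were chosen on this contrast, their ranges over the 12 alternatives are given as values and support nothing. Without 1 library the log2 fold change ran from -1.35 to -1.15 in Itgae, -1.12 to -1.03 in Itgax, 2.17 to 2.45 in Itga7 and 0.75 to 1.00 in Itgam, and from 0.54 to 0.57 in Itga4. By the adjusted p alone, a rule with no fold limit, the counts were 4036 for all genes, 10 for the 10 genes and 5 for other integrins. They were 13 for activation and adaptor genes, 7 for ligands, 3 for tetraspanins and 11 for TGF-β genes. For genes high in resident cells the count was 8, and for other adhesion genes 7. Over all genes DESeq2 called 501, against 714. With replicate numbers as a block 666 were called, and no count of a list or of the 10 changed. With at least 1 CPM in all libraries of a group 1 adaptor was called, Tgfb1i1 (adjusted p = 0.0426), and with no filter 7 ligands, with Col1a2, Col4a1 and Fn1 added at low counts. Leaving out each library gave 621 to 719 genes, 0 to 1 adaptors (Tgfb1i1 without IL-33 replicate 1), 4 to 6 ligands (Col1a2 or Fn1 added, Jam3 lost), 0 to 1 tetraspanins (Tspan32), 0 to 1 genes high in resident cells (Prdm1) and 0 to 1 other adhesion genes (Ncam1, without IL-33 replicate 1), while the other lists kept their counts. The sign of some genes near 0 turned without 1 library, where values ran from -0.086 to 0.0018 for Itga3, -0.31 to 0.068 for Itga9, -0.11 to 0.50 for Itga10, -0.20 to 0.14 for Itgb5, -0.72 to 0.37 for Pelo and -0.14 to 0.27 for Cerkl, none with an adjusted p under 0.05 in the fit to all libraries. The causes were not tested. Low counts limit the precision for Itgam, Itgad, Itgb4, Itgb8, Itga10 and the JAM genes.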

Other observations

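The genes nearest in pattern were sought among 12958 genes with a mean of at least 1 CPM, by the root mean square difference of log2 CPM centred on each gene's mean over the 6 libraries. Nearest to Itga7 were Ankrd35 (0.247), Trpc1 (0.272), a channel subunit, and Arhgef28 (0.320). Ankrd35 was at 0.894 to 1.46 CPM in control libraries and at 3.96 to 5.67 CPM with IL-33. Nearest to Itgae were Il17re (0.0921), a receptor chain for IL-17C, Col15a1 (0.132), a collagen, and Axin2 (0.133), a target of Wnt signalling. Il17re was at 5.84 to 6.70 CPM in control libraries and at 2.51 to 3.33 CPM with IL-33, and Axin2 at 4.47 to 5.24 and at 2.00 to 3.06 CPM. Nearness here rests on 6 libraries in 2 groups and says nothing of shared function.

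Within 50 kb of the 10 genes, 31 other genes were tested, of which 1 was higher (Itga2) and 1 lower (9130019O22Rik, near Itgal) past both thresholds, and 8 had an adjusted p under 0.05, beside 4.87% and 27.5% of all genes tested. The gene 9130019O22Rik was at 4.75 to 5.46 CPM in control libraries and at 3.10 to 3.53 CPM with IL-33 (log2 fold change -0.64, adjusted p = 0.00335 in edgeR's test).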
